A study of Mus musculus with 12 samples.

Results

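The genes described here carry death signals from the cell surface to the mitochondria and the plasma membrane by 2 routes, necroptosis and the JNK stress kinase cascade. They are a list of 10, taken by symbol and matched to their Ensembl identifiers: Tnfrsf1a, Ripk1, Ripk3, Mlkl, Map3k5, Map2k4, Mapk8, Mapk9, Sh3bp5 and Gsk3b. All 10 were among the 24187 genes of the count table, and all 10 were among the 22581 genes that passed the filter on low counts. Livers came from C57BL/6J mice, for which no genetic change is named. The control mice (n = 3) had no APAP injury and no hAAMs. The study's methods name saline in place of APAP after fasting, without saying whether the sequenced controls had it. The APAP-vehicle mice (n = 5) received acetaminophen (APAP, paracetamol), a drug whose overdose kills hepatocytes around the central vein, at a labelled dose of 350 mg/kg, and then PBS. The APAP-hAAM mice (n = 4) received the same drug and then human alternatively activated macrophages (hAAMs), which are monocytes from human blood matured with CSF1 and polarized with IL-4 and IL-13. The labels give neither the age nor the sex of each mouse. The study's methods describe young adult mice of both sexes and name a substrain as well as C57BL/6J. The methods also use a higher APAP dose for the severe model, with which these livers are presented, so the dose of the sequenced livers rests on the labels alone. Cells or PBS were given in the hours after the drug and livers were taken within a day of that, and the sources differ on the hour. The labels name neither PBS nor cells for the control mice, and hAAMs were given only on top of APAP.

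TNF receptor 1 is the main receptor through which TNF reaches hepatocytes. It recruits the kinase RIPK1, which can bind RIPK3 through a shared interaction motif. RIPK3 then phosphorylates the pseudokinase MLKL, and MLKL opens the plasma membrane: this is necroptosis. The JNK route starts with oxidized thioredoxin releasing the kinase ASK1 (Map3k5), which activates MKK4 (Map2k4), which activates the JNK kinases (Mapk8 and Mapk9). Active JNK docks on the outer mitochondrial membrane protein Sab (Sh3bp5) and depresses respiration, a step well known from APAP injury, in which the kinase GSK3B also acts. All of these steps are run by phosphorylation, binding and cleavage of existing proteins. RNA counts give the supply of the transcripts and do not measure the activity of any of these kinases.

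The proximal promoters of the 3 necroptosis genes are shown because the results on necroptosis turn on these genes. Each line is the 250 bases before the first base of the gene in RefSeq (GRCm38.p6), written 5′ to 3′ on the strand of the gene, and capitals mark a GC box (GGGCGG or its reverse complement CCGCCC).
Ripk1: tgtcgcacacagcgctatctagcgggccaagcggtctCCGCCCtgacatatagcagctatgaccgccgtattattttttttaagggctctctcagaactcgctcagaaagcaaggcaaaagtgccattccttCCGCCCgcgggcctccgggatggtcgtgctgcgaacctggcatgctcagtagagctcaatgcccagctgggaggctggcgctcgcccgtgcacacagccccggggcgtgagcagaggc
Ripk3: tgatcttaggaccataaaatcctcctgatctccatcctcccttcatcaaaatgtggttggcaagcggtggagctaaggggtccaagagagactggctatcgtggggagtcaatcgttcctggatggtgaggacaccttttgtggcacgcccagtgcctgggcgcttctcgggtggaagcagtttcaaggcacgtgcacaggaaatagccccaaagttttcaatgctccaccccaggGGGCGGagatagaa
Mlkl: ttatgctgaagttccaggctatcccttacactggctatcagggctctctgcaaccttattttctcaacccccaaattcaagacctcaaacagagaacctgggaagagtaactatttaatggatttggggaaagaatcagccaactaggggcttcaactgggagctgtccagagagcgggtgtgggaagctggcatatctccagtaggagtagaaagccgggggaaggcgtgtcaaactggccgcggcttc

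The window of Ripk1 lies at chr13:34002113-34002362 on the plus strand and has 2 GC boxes. The window of Ripk3 lies at chr14:55788858-55789107 on the minus strand and has 1 GC box, at positions -14 to -9. The window of Mlkl lies at chr8:111338206-111338455 on the minus strand and has none. Their GC content was 60.8%, 54% and 50.8%, and the median of all 32851 windows of this length was 52.4%. The same windows were searched on both strands for 4 motifs of inducible factors: the kappaB motif (GGGA and TTCC with 2 bases between them), the AP-1 motif TGANTCA, the GAS motif TTCNNNGAA and the IRF motif (TTTC and TTTC with 2 bases between them). None of the 4 occurred in these 3 windows. Across the windows nearest to the annotated starts of all 10 genes, the GC box occurred for 6 genes and the GAS motif for 2 (Map2k4 and Tnfrsf1a), while the kappaB, AP-1 and IRF motifs occurred for none. Of all 32851 windows, 32.7% held the GC box, 7.02% the GAS motif, 6.75% the AP-1 motif, 2.98% the IRF motif and 1.21% the kappaB motif. Ripk1 has a second RefSeq window, 511 bases downstream of the first, with 4 GC boxes and 2 GAS motifs. A match of letters is not a bound site, and the data hold no measurement of binding.

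Total counts ranged from 60870399 to 74056505 in the control livers, from 50859599 to 61826952 in the APAP-vehicle livers and from 47391650 to 55379420 in the APAP-hAAM livers. Each of the 10 genes was read at least 63 times in every liver. The values below are CPM, the counts of a gene in every 1000000 counts of its library, scaled with TMM, a method that sets the bulk of genes equal between libraries. When library size was used in place of TMM, the median over all genes of the log2 fold change moved from 0.01 to 0.36 for APAP-vehicle against control and from 0.02 to 0.32 for APAP-hAAM against control, so every difference from control is relative to the bulk of genes. APAP-vehicle replicate 3 and APAP-hAAM replicate 4 had nearly the same counts: over genes with a mean of at least 100 counts, the spread between them was 1.2 times that of counting alone, while the remaining 35 pairs of APAP livers had 2.53 to 5.58 times. The calls among the 10 genes and the comparison between the APAP groups are therefore also given without both. Hepatocyte markers, such as Alb and Cps1, summed to between 56300 and 87600 CPM in control and 64800 and 97500 CPM in APAP livers, with 1 of 6 called lower in APAP-vehicle and none called in APAP-hAAM livers against control, and those of T, NK and B cells to at most 8.77 CPM. Nothing in the labels says that the mice shared a litter, day or batch, and p-values measure the spread between these livers.

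Under TMM scaling, Ripk3 and Sh3bp5 were called higher and Tnfrsf1a and Ripk1 lower than control in both APAP groups, Mlkl was called higher in APAP-vehicle livers and did not pass in APAP-hAAM livers, and the JNK kinases gave no call. In APAP-vehicle livers, 3 of the 10 genes were higher (Ripk3, Mlkl and Sh3bp5) and 2 lower (Ripk1 and Tnfrsf1a) at an adjusted p under 0.05 by edgeR's quasi-likelihood test. Over all 22581 genes tested, 29.8% passed in this comparison, 15.0% of them higher and 14.8% lower as shares of all genes tested. In APAP-hAAM livers against the same controls, 2 were higher (Ripk3 and Sh3bp5) and 2 lower (Ripk1 and Tnfrsf1a), where 20.7% of all genes passed (10.7% higher and 9.96% lower). By library size the split was another one: 7 were higher and none lower in APAP-vehicle livers, where 43.2% of all genes passed (38.2% higher and 4.92% lower), and 7 were higher and 1 lower in APAP-hAAM livers, where 32.5% passed (29.0% higher and 3.46% lower). The 7 were Ripk3, Mlkl, Sh3bp5, Map3k5, Map2k4, Mapk8 and Mapk9 in both, and the 1 lower was Tnfrsf1a. DESeq2 also called Gsk3b lower in both comparisons and Mlkl higher in APAP-hAAM livers, so that it called 6 of the 10 genes in each, and its shares of all genes were 34.0% and 25.8%. Without both similar libraries edgeR called the same 5 genes for APAP-vehicle (30.0% of all genes) and 3 for APAP-hAAM (19.6%), with Sh3bp5 lost. The median log2 fold change of the 10 genes was 0.04 for APAP-vehicle and 0.09 for APAP-hAAM, against 0.01 and 0.02 for all genes. The CPM of APAP-vehicle and control livers did not overlap for 6 of the 10 genes (34.8% of all genes), and those of APAP-hAAM and control livers for 5 of the 10 (28.5% of all genes). These shares have few genes behind them, and the list as a whole was not tested.

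**Figure D1:**
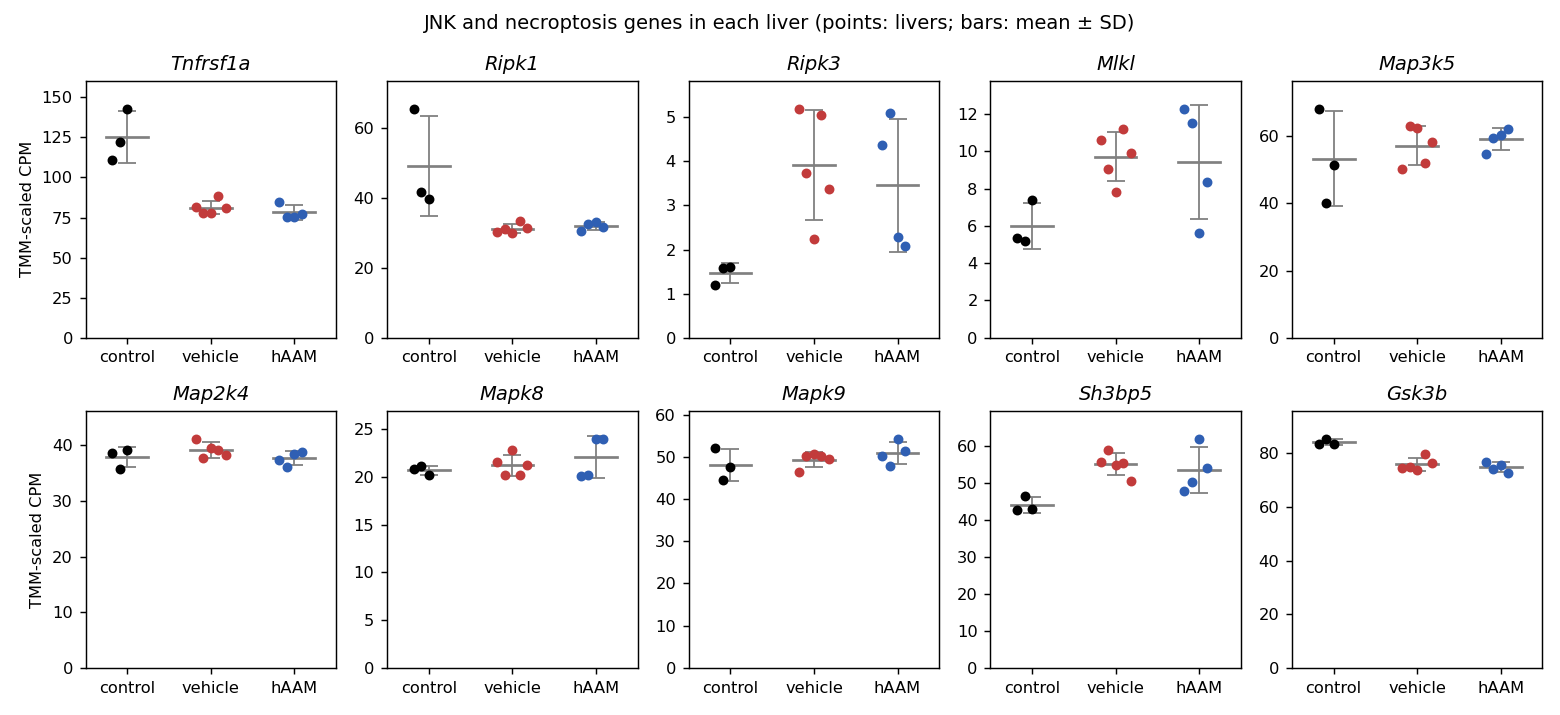
TMM-scaled CPM (vertical axes, each starting at 0) of the 10 genes in control (n = 3), APAP-vehicle (n = 5) and APAP-hAAM (n = 4) livers; points are livers, lines the mean and bars the SD. Tnfrsf1a and Ripk1 lie lower and Ripk3 and Sh3bp5 higher in every APAP liver than in every control liver, while the points of Map3k5, Map2k4, Mapk8 and Mapk9 overlap.

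Tnfrsf1a (ENSMUSG00000030341, chr6:125349362-125362484 on GRCm38, plus strand) encodes TNF receptor 1. Its CPM were 111, 122 and 143 in the control livers, 81.7, 77.6, 77.8, 88.2 and 80.7 in the APAP-vehicle livers, and 84.9, 75.5, 75.2 and 77.3 in the APAP-hAAM livers. All 9 APAP livers lay below all 3 control livers. Expression fell by 0.63 on the log2 scale in APAP-vehicle livers (SE 0.0863, 95% interval -0.82 to -0.44, edgeR adjusted p = 0.00053) and by 0.68 in APAP-hAAM livers (SE 0.091, -0.88 to -0.49, adjusted p = 0.000889). Both calls held in each of the 12 fits that left out 1 liver. Under library size scaling the values were -0.28 (adjusted p = 0.0587) and -0.38 (adjusted p = 0.0281), so the first call was lost.

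Ripk1 (ENSMUSG00000021408, chr13:34002363-34037147, plus strand) encodes the kinase that passes the signal of TNF receptor 1 either to survival genes or to cell death. The control livers had 65.6, 41.8 and 39.8 CPM, the APAP-vehicle livers 30.3, 31.0, 30.1, 33.3 and 31.5 CPM, and the APAP-hAAM livers 30.6, 32.5, 33.1 and 31.8 CPM. All 9 APAP livers sat in a narrow band below the control livers, whose replicate 1 stood above the other two. Ripk1 fell by 0.65 on the log2 scale in APAP-vehicle livers (SE 0.13, edgeR adjusted p = 0.0037) and by 0.62 in APAP-hAAM livers (SE 0.138, adjusted p = 0.0102). Without control replicate 1 the differences were -0.39 (adjusted p = 0.00364) and -0.35 (adjusted p = 0.0105), and both calls held in all 12 fits that left out 1 liver. Under library size scaling neither passed (-0.30, adjusted p = 0.102, and -0.32, adjusted p = 0.121). Ripk1 shares 241 exonic bases with Serpinb6a on the opposite strand and 511 with the pseudogene Gm17084 on its own strand, and whether the counting used strand is not given in the sources used here.

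Ripk3 (ENSMUSG00000022221, chr14:55784995-55788865, minus strand) encodes the kinase that commits a cell to necroptosis. It was the scarcest of the 10 transcripts, with between 63 and 342 counts per liver. The 3 control livers held 1.20, 1.59 and 1.60 CPM. The APAP-vehicle values were 5.20, 3.74, 2.23, 5.06 and 3.37 CPM, and the APAP-hAAM values were 4.37, 5.11, 2.29 and 2.07 CPM. Every APAP liver exceeded every control liver, and the APAP livers themselves spread over a more than 2-fold range. Ripk3 rose 2.68-fold in APAP-vehicle livers (log2 1.42, SE 0.352, 95% interval 0.66 to 2.18, edgeR adjusted p = 0.0107) and 2.36-fold in APAP-hAAM livers (log2 1.24, SE 0.362, 0.45 to 2.03, adjusted p = 0.0311). The first call held in all 12 fits without 1 liver (adjusted p 0.00481 to 0.0456), and the second in 7 of 12 (adjusted p 0.0179 to 0.1). It was lost without any one of the 3 control livers, APAP-hAAM replicate 1 or APAP-hAAM replicate 2. Without both similar libraries, which held the lowest 2 Ripk3 values of the APAP livers, the differences were 1.57 (adjusted p = 0.00325) and 1.42 (adjusted p = 0.0106). In a fit of only the 2 groups compared, the APAP-hAAM difference was 1.25 and its call was lost (adjusted p = 0.0537).

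Mlkl (ENSMUSG00000012519, chr8:111311797-111338177, minus strand) encodes the protein that permeabilizes the membrane. It had 5.34, 5.19 and 7.41 CPM in control livers. In APAP-vehicle livers it had 10.6, 9.05, 7.82, 11.2 and 9.90 CPM, all above control, and in APAP-hAAM livers 12.3, 11.5, 5.60 and 8.34 CPM, of which replicate 3 fell within the control range. The rise was 1.63-fold in APAP-vehicle livers (log2 0.70, SE 0.232, 95% interval 0.20 to 1.21, edgeR adjusted p = 0.0389). Among the 5 calls this one had the largest adjusted p, and it held in 6 of the 12 fits that left out 1 liver (adjusted p 0.0103 to 0.127). It was lost without control replicate 1, control replicate 2, or any one of APAP-vehicle replicates 1, 2, 4 and 5. In APAP-hAAM livers the difference was of similar size and did not pass (log2 0.66, SE 0.241, adjusted p = 0.072), although DESeq2 called it (adjusted p = 0.0399). The log2 differences without both similar libraries were 0.78 (adjusted p = 0.0361) and 0.72 (adjusted p = 0.0772). The APAP-hAAM livers also differed among themselves, with an SD of 3.07 CPM against 1.32 CPM in APAP-vehicle livers.

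Because a ratio of 2 genes within a liver does not depend on the scaling between libraries, the balance of the necroptosis kinases was compared in that form. Per base of exon, the level of Ripk3 was 0.0666, 0.138 and 0.146 of that of Ripk1 in the control livers. It was 0.625, 0.44, 0.269, 0.553 and 0.389 of Ripk1 in APAP-vehicle livers and 0.52, 0.573, 0.251 and 0.238 in APAP-hAAM livers. All 9 APAP livers thus had more Ripk3 per Ripk1 than any control liver. The log2 ratio of counts was -5.03 ± 0.63 (SD, n = 3) in control and -3.05 ± 0.47 (n = 5) in APAP-vehicle livers, a 3.94-fold difference (exact permutation test, two-sided, with p = 0.0179 being the smallest that 3 against 5 livers allow). In APAP-hAAM livers it was -3.31 ± 0.67 (n = 4), a 3.3-fold difference from control (exact permutation test, p = 0.0286, the smallest that 3 against 4 livers allow). Adjusted over the 9 ratio tests, both p-values were 0.129. With so few livers, even full separation of the groups for a single ratio could not pass this adjustment. The adjusted values therefore do not decide whether this ratio differed. The log2 differences without both similar libraries were 2.15 and 1.93. The log2 ratio of Mlkl to Ripk3 was 2.02 ± 0.27 in control, 1.36 ± 0.32 in APAP-vehicle and 1.49 ± 0.37 in APAP-hAAM livers. Those ratios did not differ from control beyond the test (exact permutation p = 0.0536 and 0.114, adjusted 0.161 and 0.257).

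**Figure D2:**
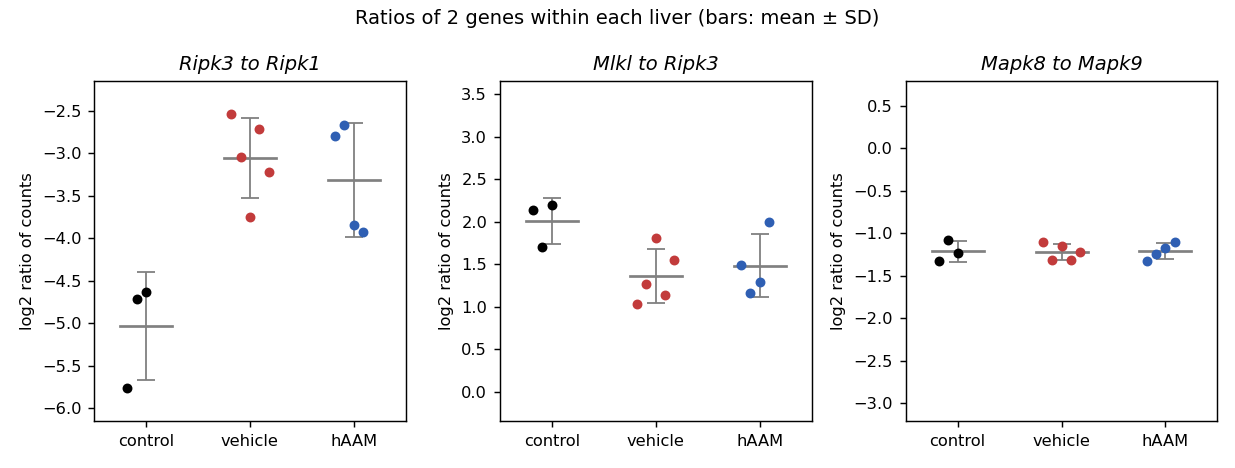
Log2 ratio of the counts of 2 genes within each liver (vertical axis; all panels span 4 log2 units) for Ripk3 to Ripk1, Mlkl to Ripk3 and Mapk8 to Mapk9; points are livers and bars the mean ± SD. The ratio of Ripk3 to Ripk1 lies between -3.93 and -2.54 in all 9 APAP livers and between -5.76 and -4.63 in the 3 control livers, while the ratio of Mapk8 to Mapk9 stays near -1.21 in every group.

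Ripk3 and Mlkl are expressed by macrophages as well as by other liver cells, and markers of monocytes and recruited macrophages were also higher in APAP livers. The 10 markers, among them Ly6c2, Ccr2, Cd68 and Gpnmb, summed to 149, 154 and 157 CPM in control livers. They summed to 415, 300, 234, 392 and 254 CPM in APAP-vehicle livers and to 470, 402, 352 and 233 CPM in APAP-hAAM livers. Of the 10 markers, 7 were called higher in each APAP group against control, none was called lower, and no marker was at 0 in any liver. The lowest Ripk3 values among APAP livers belonged to APAP-hAAM replicate 4 and APAP-vehicle replicate 3, which also had the lowest marker sums. These are the 2 similar libraries. APAP-hAAM replicate 3 went against the order of marker sums, with 352 CPM beside 2.29 CPM of Ripk3 and the lowest Mlkl of the APAP livers. APAP-vehicle replicate 3 and APAP-hAAM replicates 3 and 4 had the lowest stellate cell sums of the APAP livers (330, 320 and 325 CPM). Their sums of endothelial (337, 313 and 328), neutrophil (11.4, 13.1 and 12.3) and cholangiocyte markers (64.1, 63.8 and 64.5) were lowest too. Their hepatocyte sums were highest, and those of Kupffer, erythroid, T, NK and B cells were not all lowest. Summed markers of stellate cells ranged from 230 to 301 CPM in control livers and from 320 to 669 CPM in APAP livers, and those of sinusoidal endothelial cells from 295 to 323 and from 313 to 439 CPM. Of 6 markers each, 3 and 3 of the stellate cell and 3 and 2 of the endothelial markers were called higher in APAP-vehicle and APAP-hAAM livers. Kupffer cell markers overlapped between the groups (167 to 231 CPM in control and 196 to 308 CPM in APAP livers, 1 of 6 called higher in each). Erythroid markers summed to between 119 and 193 CPM in control, 161 and 1400 CPM in APAP-vehicle and 165 and 520 CPM in APAP-hAAM livers. Of the 3 erythroid markers tested, 2 were called higher and 1 lower in APAP-vehicle livers, and none higher and 1 lower in APAP-hAAM livers. Neutrophil markers summed to 7.09 to 29.2, 11.4 to 46.5 and 12.3 to 42.3 CPM in these groups, and cholangiocyte markers to 40.3 to 65.5, 64.1 to 301 and 63.8 to 231 CPM, with none of 6 and none of 5 called. The part of these cells in the rise of Ripk3 and Mlkl was not tested, and in bulk tissue more cells of a type and more RNA per cell cannot be told apart.

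**Figure D3:**
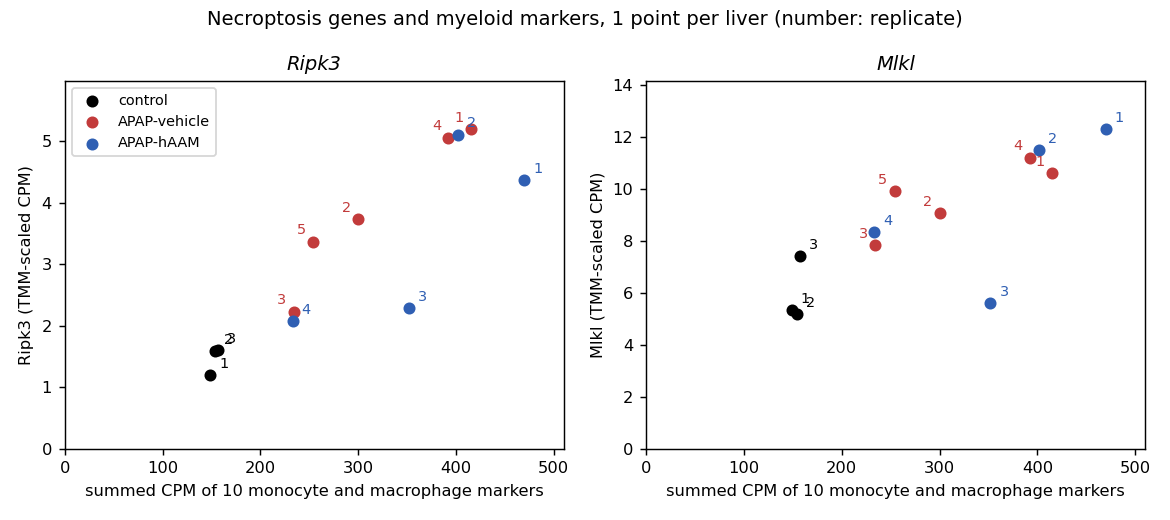
CPM of Ripk3 (left) and Mlkl (right) against the summed CPM of 10 monocyte and recruited macrophage markers, 1 point per liver with its replicate number in the colour of its group. Control livers lie at 149 to 157 marker CPM with at most 1.60 CPM of Ripk3, and APAP-hAAM replicate 3 combines a high marker sum (352 CPM) with 2.29 CPM of Ripk3.

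Values of the kinases of the JNK cascade overlapped between all groups. Map3k5 (ENSMUSG00000071369, chr10:19934472-20142753, plus strand), which encodes the redox-controlled kinase ASK1, had 68.2, 40.1 and 51.4 CPM in control livers. Its APAP-vehicle values were 50.3, 63.1, 62.3, 51.9 and 58.3 CPM, and its APAP-hAAM values 54.6, 59.3, 60.4 and 62.1 CPM. The control livers were the most variable group for this gene, with a coefficient of variation of 26.6% against 10.3% and 5.49%. The log2 differences from control were 0.10 (95% interval -0.21 to 0.41) and 0.15 (-0.17 to 0.47) (edgeR). Over the 12 fits that left out 1 liver they ranged from -0.07 to 0.32 and from -0.02 to 0.37.

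Map2k4 (ENSMUSG00000033352, chr11:65688243-65788297, minus strand), encoding MKK4, was among the steadiest. The control livers had 38.7, 35.8 and 39.2 CPM, the APAP-vehicle livers 41.2, 37.7, 39.6, 39.2 and 38.2 CPM, and the APAP-hAAM livers 37.3, 36.1, 38.5 and 38.8 CPM. Its log2 differences from control were 0.05 (95% interval -0.08 to 0.17) and -0.01 (-0.14 to 0.12). In folds, these intervals reach from 0.906 to 1.13 under TMM scaling.

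Mapk8 (ENSMUSG00000021936, chr14:33377898-33447158, minus strand) and Mapk9 (ENSMUSG00000020366, chr11:49846751-49886421, plus strand) encode JNK1 and JNK2, the kinases that carry the mitochondrial death signal. Mapk8 had 20.8, 21.1 and 20.2 CPM in control, 21.6, 20.2, 22.8, 20.2 and 21.2 CPM in APAP-vehicle and 20.1, 20.2, 24.0 and 24.0 CPM in APAP-hAAM livers. Mapk9 had 52.1, 44.5 and 47.6 CPM in control, 46.4, 50.1, 50.7, 50.1 and 49.5 CPM in APAP-vehicle and 50.3, 47.9, 54.3 and 51.4 CPM in APAP-hAAM livers. For neither gene did any APAP group separate from control. The log2 differences of Mapk8 were 0.03 (95% interval -0.14 to 0.21, edgeR adjusted p = 0.771) and 0.09 (-0.09 to 0.27, adjusted p = 0.461), and those of Mapk9 were 0.04 (-0.11 to 0.19, adjusted p = 0.703) and 0.08 (-0.07 to 0.24, adjusted p = 0.431). The log2 ratio of Mapk8 to Mapk9 was -1.21 ± 0.13 in control, -1.22 ± 0.09 in APAP-vehicle and -1.21 ± 0.10 in APAP-hAAM livers (exact permutation p = 0.911 and 0.971). Per base of exon, Mapk8 was at 0.236 to 0.281 of the level of Mapk9 in all 12 livers. Mapk10, the JNK gene of neurons and heart, did not pass the filter. Under library size scaling, Map3k5, Map2k4, Mapk8 and Mapk9 had log2 differences between 0.29 and 0.45 and all 8 passed the test, at values close to the shift of all genes under that scaling.

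Sh3bp5 (ENSMUSG00000021892, chr14:31359880-31436078, minus strand) encodes Sab, the mitochondrial docking site of JNK, and was the only one of the 10 genes on the JNK route that was called higher under TMM scaling. Control livers had 42.6, 46.4 and 43.0 CPM. APAP-vehicle livers had 55.6, 58.9, 54.8, 55.3 and 50.5 CPM and APAP-hAAM livers 47.9, 50.2, 61.9 and 53.9 CPM, all above the highest control liver. The rise was 1.25-fold in APAP-vehicle livers (log2 0.32, SE 0.0865, edgeR adjusted p = 0.0157) and 1.22-fold in APAP-hAAM livers (log2 0.28, SE 0.0901, adjusted p = 0.0443). It was called in 10 of 12 fits without 1 liver for APAP-vehicle, being lost without control replicate 1 or control replicate 3, and in only 2 of 12 for APAP-hAAM (adjusted p 0.0346 to 0.128), those without APAP-vehicle replicate 5 and without APAP-hAAM replicate 1. Without both similar libraries the APAP-hAAM difference was again 0.28, with an adjusted p of 0.09, and in a fit of only the 2 groups compared it was 0.29, with an adjusted p of 0.101. Sh3bp5 shares 116 exonic bases with Capn7 on the opposite strand.

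Gsk3b (ENSMUSG00000022812, chr16:38089001-38246084, plus strand), a kinase that acts on JNK signalling and on the mitochondrial permeability transition, had small differences with little spread. Its values were 83.5, 85.4 and 83.6 CPM in control, 74.4, 74.8, 73.9, 79.7 and 76.5 CPM in APAP-vehicle and 76.8, 74.1, 75.7 and 72.7 CPM in APAP-hAAM livers. All APAP livers lay below all control livers. The log2 differences were -0.15 (SE 0.056, edgeR adjusted p = 0.0615) and -0.17 (SE 0.0586, adjusted p = 0.0587), just short of the threshold, while DESeq2 called both (adjusted p = 0.00123 and 7.97e-04). By library size the differences were 0.20 and 0.13, positive but below the medians of all genes under that scaling (0.36 and 0.32).

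**Figure D4:**
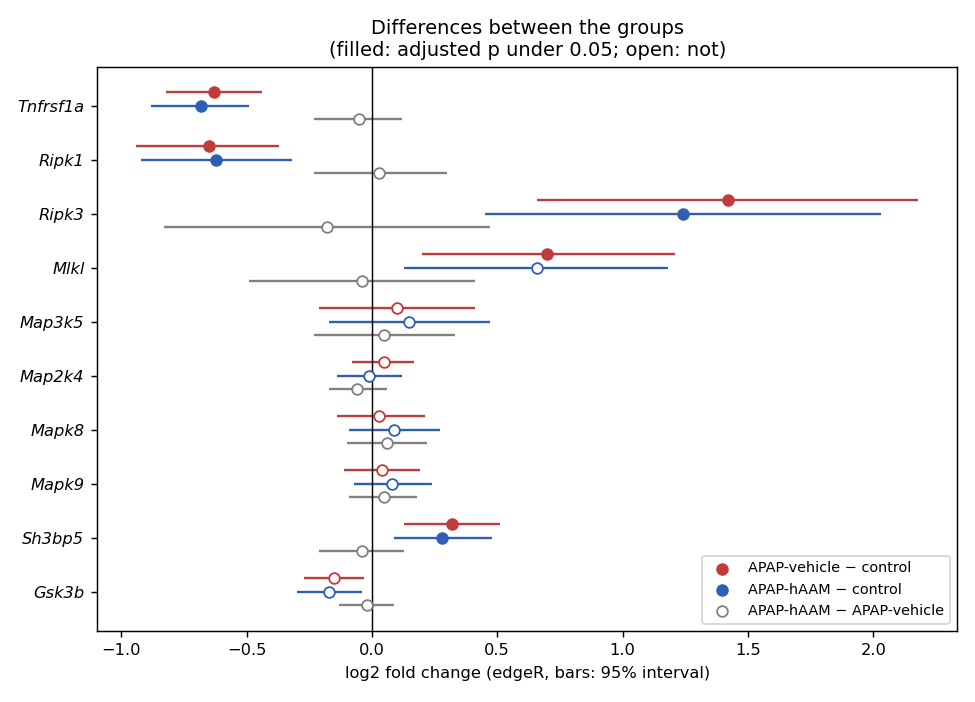
Log2 fold change (horizontal axis) of each gene in the 3 comparisons, from edgeR's fit to all 12 livers; bars are 95% intervals, and filled points have an adjusted p under 0.05. Both comparisons with control give like values for each gene, and all 10 differences between APAP-hAAM and APAP-vehicle lie between -0.18 and 0.06 with intervals that include 0.

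The 2 APAP groups share their control livers, so their differences from control are not independent of each other. Compared directly, APAP-hAAM and APAP-vehicle livers gave no call among the 10 genes, and edgeR called 0% of all genes in this comparison. None of the 10 had an unadjusted p under 0.05 (1133 of 22581 genes did), and DESeq2 called none of them and 1 other gene (0.00443% of those tested). With both similar libraries left out, edgeR again called none of the 10 genes (0% of all genes), the log2 differences ran from -0.15 for Ripk3 to 0.05 for Map3k5, and 1530 genes had an unadjusted p under 0.05. The log2 differences of APAP-hAAM minus APAP-vehicle ranged from -0.18 for Ripk3 to 0.06 for Mapk8, with edgeR adjusted p-values of 0.98 to 0.999. The intervals set limits of unequal width. For Map2k4 the interval ran from -0.17 to 0.06, for Gsk3b from -0.13 to 0.09, for Mapk9 from -0.09 to 0.18, for Mapk8 from -0.10 to 0.22, for Sh3bp5 from -0.21 to 0.13 and for Tnfrsf1a from -0.23 to 0.12. For Ripk1 it ran from -0.23 to 0.30, for Map3k5 from -0.23 to 0.33, for Mlkl from -0.49 to 0.41 and for Ripk3 from -0.83 to 0.47. A fall of Ripk3 by 0.83 on the log2 scale under hAAMs therefore stays within the error of these 9 livers, whereas for the JNK kinases a difference of that size does not. The values of the 2 groups overlapped for all 10 genes (they did not overlap for 1.40% of all genes). The log2 ratio of Ripk3 to Ripk1 differed by -0.26 between the 2 groups (exact permutation p = 0.5), that of Mlkl to Ripk3 by 0.13 (p = 0.579) and that of Mapk8 to Mapk9 by 0.01 (p = 0.913).

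Levels of different genes were compared per kilobase of merged exon (RPKM). In control livers the order was Tnfrsf1a (48.5), Sh3bp5 (13.8), Map3k5 (8.75), Gsk3b (8.56), Map2k4 (8.13), Mapk9 (7.09), Ripk1 (5.88), Mlkl (2.60), Mapk8 (1.81) and Ripk3 (0.638 RPKM). Among neighbours in this order, the ranges of Map3k5 and Gsk3b, of Map2k4 and Mapk9, and of Mapk9 and Ripk1 overlapped. Beyond neighbours, the range of Map3k5 (6.59 to 11.2 RPKM) also overlapped those of Map2k4, Mapk9 and Ripk1, and that of Ripk1 overlapped Map2k4. In APAP-vehicle livers Mlkl (4.22 RPKM) stood beside Ripk1 (3.74) and Ripk3 (1.71) beside Mapk8 (1.85), and the ranges of each of these pairs overlapped. The same pairs overlapped in APAP-hAAM livers, with Mlkl at 4.09, Ripk1 at 3.83, Mapk8 at 1.93 and Ripk3 at 1.51 RPKM. Tnfrsf1a stayed the most abundant of the 10, at 31.3 and 30.2 RPKM, followed by Sh3bp5 at 17.2 and 16.7 RPKM.

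The other genes of these routes were taken from 8 lists with 157 genes, of which 153 were tested. In APAP-vehicle livers 27 were higher and 28 lower than control, and in APAP-hAAM livers 19 higher and 29 lower. Over all genes tested, 29.8% passed for APAP-vehicle (15.0% higher and 14.8% lower) and 20.7% for APAP-hAAM (10.7% higher and 9.96% lower). By library size 90 and 66 of the 153 passed, where 43.2% and 32.5% of all genes did. Of all genes, 38.2% and 29.0% were then higher and 4.92% and 3.46% lower. Without both similar libraries 52 and 44 passed. The median log2 fold change over the lists was -0.03 in both comparisons. The split between higher and lower depends on scaling, and counts by library size follow each list below where they differ.

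Among the death receptors and TNF receptor complexes more genes were called lower than higher under TMM scaling. Of 29 tested, 1 was higher and 12 lower in each APAP group against control. Of all genes, 15.0% and 10.7% were higher and 14.8% and 9.96% lower. The median log2 fold change of the list was -0.34 in APAP-vehicle and -0.30 in APAP-hAAM livers. By library size, 10 were higher and 5 lower in APAP-vehicle livers and 6 higher and 4 lower in APAP-hAAM livers, where 38.2% and 29.0% of all genes were higher and 4.92% and 3.46% lower. The median of the list was then 0.01 in both, below the 0.36 and 0.32 of all genes. Fas, the receptor of Fas ligand, went from 24.9 ± 3.71 CPM in control to 9.29 ± 1.49 in APAP-vehicle and 10.3 ± 0.726 in APAP-hAAM livers, and fell by 1.42 and by 1.27 on the log2 scale (edgeR adjusted p = 4.71e-05 and 2.42e-04). Otulin, which trims the linear ubiquitin chains of the TNF receptor complex, fell by 0.73 and by 0.71 on that scale. Tnfrsf10b, the TRAIL receptor, was the gene that rose, from 0.666 ± 0.0754 CPM in control to 3.67 ± 0.696 and 3.53 ± 2.2 CPM (log2 2.46 and 2.40, adjusted p = 0.00297 and 0.00627). All 3 kept their direction and their call by library size.

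Among 18 other regulators of necroptosis, 2 were higher and 4 lower in APAP-vehicle livers and 1 higher and 3 lower in APAP-hAAM livers. By library size 9 and 5 were higher and 1 and 0 lower. Tlr4, which can engage RIPK3 through TRIF, rose from 3.89 ± 0.864 CPM to 8.10 ± 2.28 and 8.18 ± 1.79 CPM (edgeR adjusted p = 0.008 and 0.0134), and Stub1, a ubiquitin ligase that acts on RIPK3, had log2 values of 0.27 (adjusted p = 0.0496) and 0.17 (adjusted p = 0.251), with no call between the APAP groups (adjusted p = 0.977). The call of Stub1 was lost under RLE scaling (0.26, edgeR adjusted p = 0.0537), and by library size it was called in both groups (0.62, adjusted p = 0.00336, and 0.48, adjusted p = 0.0196). The chaperone genes Hsp90ab1 and Hsp90aa1, whose proteins hold RIPK3 and MLKL in active form, fell by 0.81 and by 1.05 on the log2 scale in APAP-vehicle livers and by 0.60 and by 0.85 in APAP-hAAM livers. By library size Hsp90aa1 was not called in either comparison, and Hsp90ab1 not in APAP-hAAM livers.

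Of the 28 other kinases and scaffolds of the JNK cascade that were tested, 6 were higher and 4 lower in APAP-vehicle livers and 4 higher and 6 lower in APAP-hAAM livers. By library size 16 and 12 were higher and 2 and 1 lower. Map3k1, which encodes MEKK1, fell from 84.4 ± 0.851 CPM in control to 38.6 ± 1.21 and 42.8 ± 2.74 CPM (log2 -1.13 and -0.98, edgeR adjusted p = 1.9e-06 and 1.4e-05). Map3k6, which encodes the ASK1 relative ASK2, rose from 2.93 ± 1.38 to 12.4 ± 2.43 and 7.73 ± 1.97 CPM (log2 2.09 and 1.40, adjusted p = 7.52e-04 and 0.00909). Between APAP-hAAM and APAP-vehicle livers Map3k6 had a log2 value of -0.68 that did not pass (unadjusted p = 0.0194, edgeR adjusted p = 0.966), and it was 1 of 5 genes of this list with an unadjusted p under 0.05. Map3k9, a mixed-lineage kinase, rose from at most 0.362 CPM in control (adjusted p = 0.00185 and 0.021), and Map4k3 had log2 differences of -0.38 and -0.35 that were called under TMM and close to 0 by library size (-0.03 and -0.05).

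Control of ASK1 and of JNK was counted in separate lists. Of 14 partners of ASK1 and redox genes, 1 was higher and 1 lower in APAP-vehicle livers and 2 were lower in APAP-hAAM livers. By library size 8 and 3 were higher and none lower. Glrx, the glutaredoxin that binds ASK1, rose by a log2 value of 0.79 in APAP-vehicle livers (edgeR adjusted p = 0.00555) and had a log2 value of 0.43 in APAP-hAAM livers (adjusted p = 0.102), with no call between the APAP groups (log2 -0.36, adjusted p = 0.966). By library size Glrx was also called in APAP-hAAM livers (log2 0.73, edgeR adjusted p = 0.0139). Txnrd1, which reduces thioredoxin, fell by 0.35 and by 0.46 under TMM but was not called by library size. Of 12 phosphatases that act on JNK and related kinases, 4 were higher in APAP-vehicle and 2 in APAP-hAAM livers, and none was lower. Among all genes, 15.0% and 10.7% were higher. By library size 7 were higher in each and none lower, where 38.2% and 29.0% of all genes were higher. Dusp4 rose from 1.79 ± 0.359 CPM to 8.75 ± 1.78 and 6.75 ± 2.6 CPM (log2 2.29 and 1.92, adjusted p = 4.09e-04 and 0.00218), and Dusp14, read 8 to 19 times per control liver, had log2 values of 1.54 and 1.35 (adjusted p = 0.0161 and 0.0444).

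Among 17 JNK substrates and genes they control, 4 were higher and 4 lower in APAP-vehicle livers, and 4 higher and 2 lower in APAP-hAAM livers. By library size 6 and 8 were higher and 1 and 0 lower. Bcl2l11, which encodes the BH3-only protein BIM, rose from 6.67 ± 2.99 CPM to 16.4 ± 4.49 and 14.0 ± 1.48 CPM (edgeR adjusted p = 0.00451 and 0.0192). Fosl1, an AP-1 subunit, was read at most 6 times in a control liver, 35 to 118 times in APAP-vehicle livers and 4 to 39 times in APAP-hAAM livers (adjusted p = 0.00171 and 0.0161). Junb, another AP-1 subunit, varied from 73.6 to 297 CPM between control livers and fell by 1.68 on the log2 scale in APAP-vehicle livers (adjusted p = 0.017), with a log2 value of -1.24 in APAP-hAAM livers (adjusted p = 0.0913). Nfatc3, a transcription factor held back by JNK, fell by 0.29 and by 0.23 under TMM and had values of 0.05 and 0.07 by library size.

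At the mitochondria, where Sab docks JNK, 8 of 25 genes were higher and 1 lower in APAP-vehicle livers, and 6 higher and 1 lower in APAP-hAAM livers, while by library size 17 and 15 were higher and 1 lower in each (38.2% and 29.0% of all genes were higher). Bcl2, the survival protein of the outer membrane, rose from 3.19 ± 0.319 CPM to 5.73 ± 0.71 and 6.11 ± 0.62 CPM (edgeR adjusted p = 9.69e-04 and 0.00135), and the channel gene Vdac2 rose from 38.7 ± 3.82 to 54.6 ± 3.23 and 52.0 ± 3.5 CPM. The one gene that fell was Sod2, the superoxide dismutase of the matrix, from 214 ± 61.7 CPM to 106 ± 11.0 and 113 ± 19.2 CPM (log2 -1.01 and -0.91, adjusted p = 0.00136 and 0.00539). Of 10 partners of GSK3, 1 was higher and 2 lower in APAP-vehicle livers and 1 higher and 3 lower in APAP-hAAM livers, and by library size 5 and 2 were higher and 2 and 2 lower. Axin2, a scaffold of the beta-catenin destruction complex and itself a target of beta-catenin, fell from 14.9 ± 6.56 CPM to 3.81 ± 1.1 and 4.19 ± 1.23 CPM (adjusted p = 9.42e-04 and 0.0035). Akt2, an insulin-signalling kinase that inhibits GSK3, fell from 117 ± 4.64 to 73.9 ± 6.44 and 74.6 ± 5.91 CPM, while Btrc, which recognizes substrates marked by GSK3, rose by log2 values of 0.36 and 0.34. Sod2, Axin2 and Akt2 were also called lower by library size. Between APAP-hAAM and APAP-vehicle livers edgeR called none of the 153 genes, 12 of which had an unadjusted p under 0.05.

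**Figure D5:**
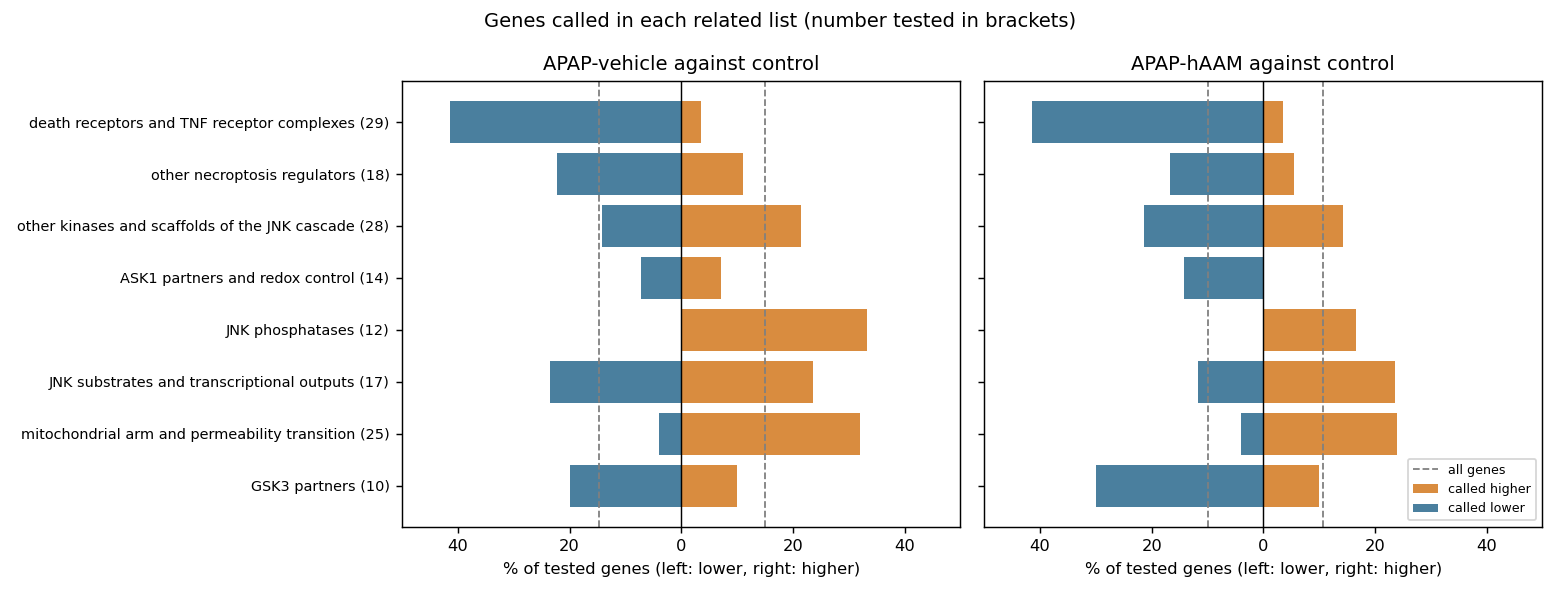
Percentage of the tested genes of each of the 8 lists (number tested in brackets) called higher (to the right) or lower (to the left) than control by edgeR under TMM scaling, for APAP-vehicle and APAP-hAAM livers; dashed lines mark the percentage over all genes, 15.0 and 14.8 or 10.7 and 9.96. The list of death receptors has 12 of 29 genes on the lower side in both panels.

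For the 3 members with the smallest p-values, the genes most alike across the 9 APAP livers were sought among 11151 genes whose log2 CPM averaged 2 or more, by Pearson's r of log2 CPM. For Ripk3 these were Tm6sf1 (r = 0.987), Dusp7 (0.983) and Capza2 (0.980), and over all 12 livers their r was 0.961, 0.953 and 0.967. Without both similar libraries it was 0.984, 0.988 and 0.962. For Tnfrsf1a they were Cdk2 (0.943), Ltbp1 (0.926) and Net1 (0.909), with r of -0.630, -0.041 and 0.554 over all 12 livers. For Ripk1 they were Nfat5 (0.868), Nox4 (0.863) and Rbm41 (0.856), with r of 0.179, -0.081 and 0.250 over all 12. Over all 12 livers r also holds the difference between the APAP and control livers. These are the highest of many values, the 9 livers include the 2 similar libraries, and nothing was tested.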

How the data were processed

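Bulk RNA-seq of 12 mouse livers was analysed. Per the labels, total RNA was depleted of rRNA and made into directional libraries. The authors trimmed reads with cutadapt 4.6, aligned them to GRCm38 with STAR 2.7.1a and counted them per Ensembl gene. The deposited values are raw counts, not normalized, and whether the counting used strand is not given in the sources used here. The labels' protocol names more libraries than the 12 listed.

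Symbols and exon lengths came from GENCODE on GRCm38 and matched 24092 of 24187 genes. Low counts were removed with filterByExpr by group, counts were scaled with TMM, and edgeR 4.0.16 (R 4.3.3) fitted 1 quasi-likelihood model to all 12 livers, two-sided, with Benjamini-Hochberg adjustment over 22581 genes and a threshold of 0.05. The biological coefficient of variation was 0.214. Fits were tested on simulated data. Ratios carried 0.5 added counts and were compared by exact permutation over livers. From each list, up to 2 genes per direction with the smallest p in APAP-vehicle against control were named. Motifs were searched in RefSeq windows. Alternatives were DESeq2 1.42.0, other scalings, filters, samples, thresholds and a replicate block. The members and lists were chosen with earlier results of these data known.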

Additional observations from a re-analysis of the deposited data

Results flagged for a closer look

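The CPM of Mapk9 in APAP-vehicle replicate 1 was 46.4, below the other 4 livers of its group, which lay between 49.5 and 50.7. The gap to the nearest liver took 0.719 of the group's range, above Dixon's critical value of 0.71 for 5 livers. Of 26 groups of values examined in this way, this was the only one marked, and chance marks about 1 in 20. The liver lies within the control range of Mapk9 (44.5 to 52.1 CPM), and the log2 difference of Mapk9 between APAP-vehicle and control ranged from -0.02 to 0.10 when each liver was left out in turn.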

How the results depend on the processing

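Leaving out each liver in turn gave 360 alternatives to the members' log2 fold changes, of which 325 kept direction and call, and of the 300 others, among them fits without both similar libraries or without the third group, 268 did. The cause of the changes below was not tested, except that a stricter threshold gives fewer calls by construction. With an adjusted p under 0.01, the members called were 2 for APAP-vehicle and 1 for APAP-hAAM against control, the related genes 35 and 19 (55 and 48 at 0.05), and all genes 3183 and 1543. By library size, 8 members were called for APAP-hAAM, 90 related genes for APAP-vehicle and 7340 genes in all for APAP-hAAM, and the log2 fold changes that reversed were Gsk3b (0.20 and 0.13), Map2k4 in APAP-hAAM (0.29), and, between APAP-hAAM and APAP-vehicle, Ripk1 (-0.01) and Mapk9 (-0.00). With at least 10 counts in every liver, Map2k4 in APAP-hAAM was 0.00. A fit of only the 2 groups compared gave 2 members, 29 related genes and 2729 genes for APAP-hAAM against control. DESeq2 called 1 gene between APAP-hAAM and APAP-vehicle. Without both similar libraries the log2 ratio of Mapk8 to Mapk9 was -0.04 for APAP-hAAM against control and -0.01 against APAP-vehicle.

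Replicate numbers recur across groups, but same-numbered livers did not deviate together (r from -0.46 to 0.39 over 10 pairs, and 2 of 11 livers correlated best with their own number). With the replicate block, APAP-hAAM against control gave 2 members, 31 related genes and 2959 genes, APAP-vehicle against control gave 4253 genes, and the ratio of Mapk8 to Mapk9 became 0.02 for APAP-vehicle and -0.04 for APAP-hAAM against control. The calls of Mlkl in APAP-vehicle (0.64, edgeR adjusted p = 0.145) and of Ripk3 (1.17, 0.0731) and Sh3bp5 (0.28, 0.096) in APAP-hAAM were lost.

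Leaving out each liver in turn, the members called ranged from 3 (without control replicate 1) to 5 for APAP-vehicle and from 2 to 4 for APAP-hAAM (2 without any one control liver or APAP-hAAM replicate 2). For APAP-vehicle the related genes called ranged from 40 to 58 and all genes from 4633 to 7197, with 40 and 4970 without control replicate 1. For APAP-hAAM the related genes called ranged from 25 to 51 and all genes from 2419 to 5456, both lowest without control replicate 3 and also over 1.5 times lower without control replicate 1 (30 and 3027) and APAP-hAAM replicate 1 (31 and 2799), and all genes without APAP-hAAM replicate 2 (2942). Between APAP-hAAM and APAP-vehicle they ranged from 0 to 1 (1 without APAP-vehicle replicate 3). The ratio of Mapk8 to Mapk9 ranged from -0.06 to 0.06 for APAP-vehicle against control, from -0.06 to 0.07 for APAP-hAAM against control and from -0.03 to 0.05 between them, and that of Mlkl to Ripk3 between them from -0.05 to 0.24. Log2 fold changes that reversed ranged from -0.07 to 0.32 (Map3k5 in APAP-vehicle), -0.02 to 0.37 (Map3k5 in APAP-hAAM), -0.02 to 0.10 (Mapk9 in APAP-vehicle), -0.05 to 0.02 (Map2k4 in APAP-hAAM) and, between the APAP groups, -0.43 to 0.00 (Ripk3), -0.20 to 0.14 (Mlkl) and -0.12 to 0.01 (Sh3bp5). Ripk3 had the fewest counts of the members, 63 to 342 per liver, and the widest intervals.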
